A study of Rattus norvegicus with 5 samples.

Results

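The genes described are 10 complement and acute phase genes, C1r, C1s, C4a, C3, Cfb, Cfi, Cp, Serpina3n, Ptx3 and Orm1, out of 15442 rat genes that had a named probe on the array. Each probe was matched to a gene through its RefSeq accession, the brightest probe stood for a gene, and all 10 passed the filter on dim probes, among 11104 genes and 18913 features tested. Of them 8 had a single probe, and Cp and Ptx3 had 2. The samples came from BALB/c nu/nu nude mice that carried xenografts of the rat glioma line C6-L. Such mice lack a thymus and so lack most T cells but keep complement and macrophages. There were 3 nodules of lung metastasis and 1 irradiated primary, both taken 6 weeks after γ-irradiation, and 1 primary tumour that was never irradiated, taken 6 weeks after the cells were implanted; the age given for every sample was 6 weeks. The cells were rat and the host was mouse, so host RNA was read only as far as it bound rat probes, and in such bulk samples fewer cells of a type and less RNA per cell cannot be told apart.

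Complement is a cascade of plasma proteins that marks surfaces for removal. In its classical arm C1q recruits the proteases C1r and C1s, which cut C4 and C2; in its alternative arm factor B (Cfb) binds C3 fragments and forms the enzyme that cuts more C3; factor I (Cfi) shuts both arms down by cutting the C3 and C4 fragments. Acute phase proteins are plasma proteins whose output, mostly by the liver, changes in inflammation under cytokines such as interleukin 6, and several of both kinds are also made by macrophages, fibroblasts, astrocytes and tumour cells.

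Levels below are log2 signals minus the 75th percentile of their own array, so 0 is that percentile, and levels of different genes are not compared because each probe binds differently. Between 69.8 and 73.5% of gene spots were well above background on each array. Groups were compared by limma with Benjamini-Hochberg adjustment over all 18913 features at a threshold of 0.05. The spread in these tests came from the 3 nodules alone, which each lone primary was assumed to share. The labels do not say that the nodules came from separate animals. The p-values cover the spread among these arrays, which may be technical in part and takes in the tissue differences given next. Both tests share the nodules and are given side by side. The sampled tissue differed between nodules: 7 of 7 alveolar and club cell markers were well above background in nodules 1 and 2, against 4 in nodule 3 and 3 in each primary. The summed linear level of these markers, in multiples of the 75th percentile signal, was 66.8, 19.6 and 0.281 in nodules 1, 2 and 3, against 0.393 in the irradiated and 1.34 in the non-irradiated primary. Heart muscle markers summed to 30.1 in nodule 3, against 1.07 and 0.887 in nodules 1 and 2. Gfap, the astrocyte filament gene, was not well above background on any array, while 4 or 5 of 6 astrocyte and glial markers were.

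The members did not move as one group. C3, on which all arms converge, was higher in every nodule than in either primary. Cfb of the alternative arm was about as high in the nodules as in the irradiated primary and higher than in the non-irradiated one. The classical members C1r, C1s and C4a did not pass either test. The acute phase members Cp, Serpina3n, Ptx3 and Orm1 were all highest in the irradiated primary, and so was C4a of the classical arm. Of these only Cp passed the test against that primary. Among all features 31.8% had every nodule below the irradiated primary, and the share highest there over all 5 arrays was not counted. Against the irradiated primary 1 of 10 members rose and 1 fell, where 0.909% of all features tested rose and 2.81% fell (3.72% in either direction). Against the non-irradiated primary 2 rose and 0 fell, where 9.72% of features rose and 8.85% fell (18.6% in either direction). At an unadjusted limma p under 0.05 there were 3 members against the irradiated primary, beside 4153 of the 18913 features. Against the non-irradiated primary there were also 3, beside 6974 features. The median difference over the 10 was -0.18 against the irradiated and -0.11 against the non-irradiated primary, beside 0.034 and 0.038 over all features.

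**Figure D1:**
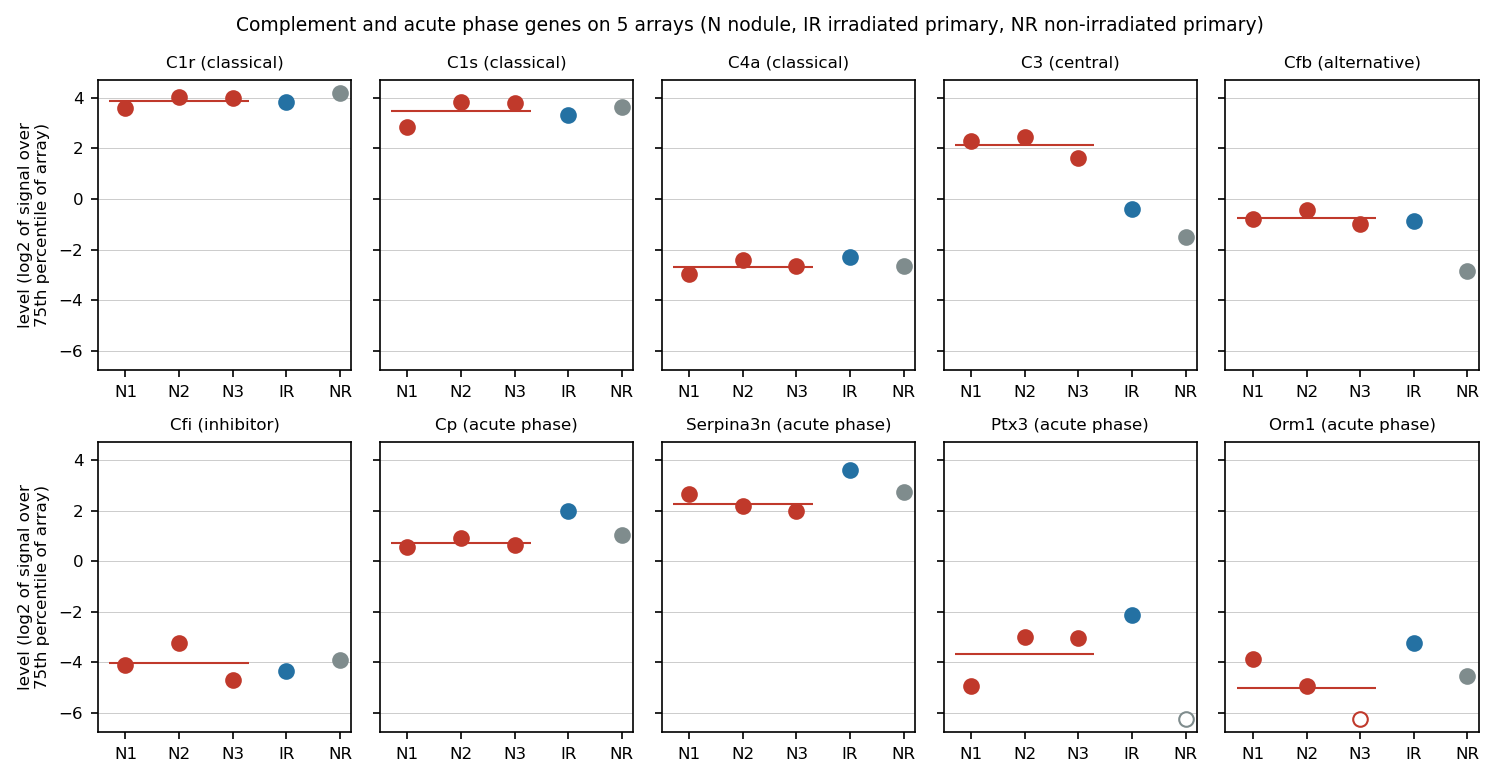
Level of each of the 10 genes on the 5 arrays, as the log2 signal over the 75th percentile of the array; N1 to N3 are the nodules, IR the irradiated and NR the non-irradiated primary, the line is the mean of the nodules, and open circles are probes not well above background. C3 lies higher in all 3 nodules than in both primaries, and the 4 acute phase genes and C4a are highest in the irradiated primary.

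C3 encodes the central component, which is cut into the anaphylatoxin C3a and the opsonin C3b. Its level was 2.31, 2.43 and 1.62 in nodules 1, 2 and 3, against -0.38 in the irradiated primary and -1.49 in the non-irradiated primary. All nodules lay above both primaries and the groups did not overlap. C3 rose 5.65-fold against the irradiated primary (log2 difference 2.50, SE 0.35, limma adjusted p = 0.0396) and 12.2-fold against the non-irradiated primary (3.61, SE 0.35, adjusted p = 0.0126). Every nodule lay above the irradiated primary for 36.2% of all features, and above the non-irradiated primary for 40.1%. The smallest of these gaps for C3 was in nodule 3, at 2.00 over the irradiated and 3.11 over the non-irradiated primary, the nodule whose alveolar and club cell markers were as low as those of the primaries. Without nodule 3 the differences were 2.75 (adjusted p = 0.0328) and 3.86 (adjusted p = 0.0342). The call against the irradiated primary was lost with quantile normalization (adjusted p = 0.0512), without an intensity trend (adjusted p = 0.0761) and without nodule 2 (2.34, adjusted p = 0.127), and the call against the non-irradiated primary without nodule 2 (3.46, adjusted p = 0.0624).

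The promoter of C3 is shown because C3 had the largest rise among the members called; it is the 250 bases before the transcript start in RefSeq (GRCr8, chr9:2201340-2201589, minus strand), 5′ to 3′, with matches to searched motifs in capitals.
C3: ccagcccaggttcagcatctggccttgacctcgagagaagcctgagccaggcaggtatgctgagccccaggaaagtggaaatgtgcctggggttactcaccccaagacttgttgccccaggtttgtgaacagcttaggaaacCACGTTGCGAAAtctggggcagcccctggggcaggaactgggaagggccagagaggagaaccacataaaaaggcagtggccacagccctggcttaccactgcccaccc
The capitals hold 2 matches that overlap by 1 base. One is CACGT, the reverse complement of the hypoxia response core ACGTG, which 16.6% of 33469 promoters of the same length held on either strand. The other is TTGCGAAA, a match to the C/EBP letters TTGCNNAA, which 9.22% of promoters held. C/EBP factors are transcription factors of the acute phase response. A match is a run of letters, and binding was not measured.

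The genes whose pattern over the 5 arrays was most like that of C3 included the haemoglobin genes Hba-a1 and Hbb-b1, the closest of all, among 10036 named genes well above background on all arrays. Likeness was the root mean square difference of levels after centring each gene on its own mean, and was 0.273 for Hba-a1 and 0.274 for Hbb-b1. Hbb-b1 stood at 7.77, 7.33 and 6.68 in nodules 1, 2 and 3, against 4.86 in the irradiated and 3.17 in the non-irradiated primary. Like C3, it was lowest among the nodules in nodule 3 and lower in the non-irradiated than in the irradiated primary. Whether blood in the samples had a part in the level of C3 was not tested. Macrophage markers, of which 8 of 9 were well above background on every array and C1qc on none, summed to 47.8, 46.8 and 42.0 in nodules 1, 2 and 3, against 51.1 in the irradiated and 21.7 in the non-irradiated primary. Most of this sum is C1qa and C1qb. Against the non-irradiated primary, where 9.72% of all features rose and 8.85% fell, 5 of the 8 markers tested rose and 2 fell. Those that fell were Cd163, by a log2 difference of -2.54 (limma adjusted p = 0.0399), and Cd68, by -1.12 (adjusted p = 0.0338). The part of macrophages in the level of C3 was not tested.

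Cfb encodes factor B, the protease of the alternative C3 convertase. It read -0.80, -0.44 and -0.97 in nodules 1, 2 and 3, against -0.89 in the irradiated primary and -2.85 in the non-irradiated primary. The irradiated primary lay inside the range of the nodules, and the non-irradiated primary lay below all of them. Cfb rose 4.32-fold against the non-irradiated primary (log2 difference 2.11, SE 0.25, limma adjusted p = 0.0145). Against the irradiated primary the difference was 0.15 (95% interval -0.50 to 0.79, adjusted p = 0.775). Its call was lost without nodule 2 (1.96, adjusted p = 0.0635) and without nodule 3 (2.23, adjusted p = 0.0527). The irradiated primary exceeded the non-irradiated one by 1.97 on the log2 scale, a difference of single arrays with no test.

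Cfi, the inhibitory protease that needs cofactors to cut C3b and C4b, was dim. Its level was -4.12, -3.22 and -4.68 in nodules 1, 2 and 3, against -4.35 in the irradiated and -3.92 in the non-irradiated primary. Both primaries fell within the spread of the nodules. Its differences were 0.34 (95% interval -1.20 to 1.89, limma adjusted p = 0.780) and -0.085 (-1.63 to 1.46, adjusted p = 0.932).

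C1r and C1s, the paired proteases of the C1 complex, were well above background on all 5 arrays and passed neither test. C1r stood at 3.60, 4.04 and 3.98 in nodules 1, 2 and 3, against 3.83 in the irradiated and 4.18 in the non-irradiated primary. C1s stood at 2.86, 3.83 and 3.78 in the same nodules, against 3.30 and 3.62 in the irradiated and non-irradiated primaries. For both genes nodule 1 was the lowest of all arrays and nodules 2 and 3 differed by under 0.1. The difference of C1r was 0.043 against the irradiated primary (95% interval -0.50 to 0.58, limma adjusted p = 0.927) and -0.31 against the non-irradiated one (-0.85 to 0.23, adjusted p = 0.340). For C1s it was 0.19 (-0.91 to 1.29, adjusted p = 0.830) and -0.13 (-1.23 to 0.97, adjusted p = 0.850). Without nodule 1 the difference of C1s against the irradiated primary was 0.51 and passed (adjusted p = 0.0418).

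C4a encodes the substrate of C1s whose fragment binds covalently to surfaces. It read -2.95, -2.43 and -2.65 in nodules 1, 2 and 3, against -2.28 in the irradiated and -2.66 in the non-irradiated primary. All nodules lay below the irradiated primary and on both sides of the other. Its differences were -0.40 (95% interval -1.09 to 0.29, limma adjusted p = 0.451) and -0.014 (-0.71 to 0.68, adjusted p = 0.974). Rat has a near-identical second gene, C4b, to which no probe was matched here, and whether the C4a probe tells the copies apart was not tested. Over the 3 classical members the medians were 0.043 against the irradiated and -0.13 against the non-irradiated primary, beside 2.50 and 3.61 for C3.

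**Figure D2:**
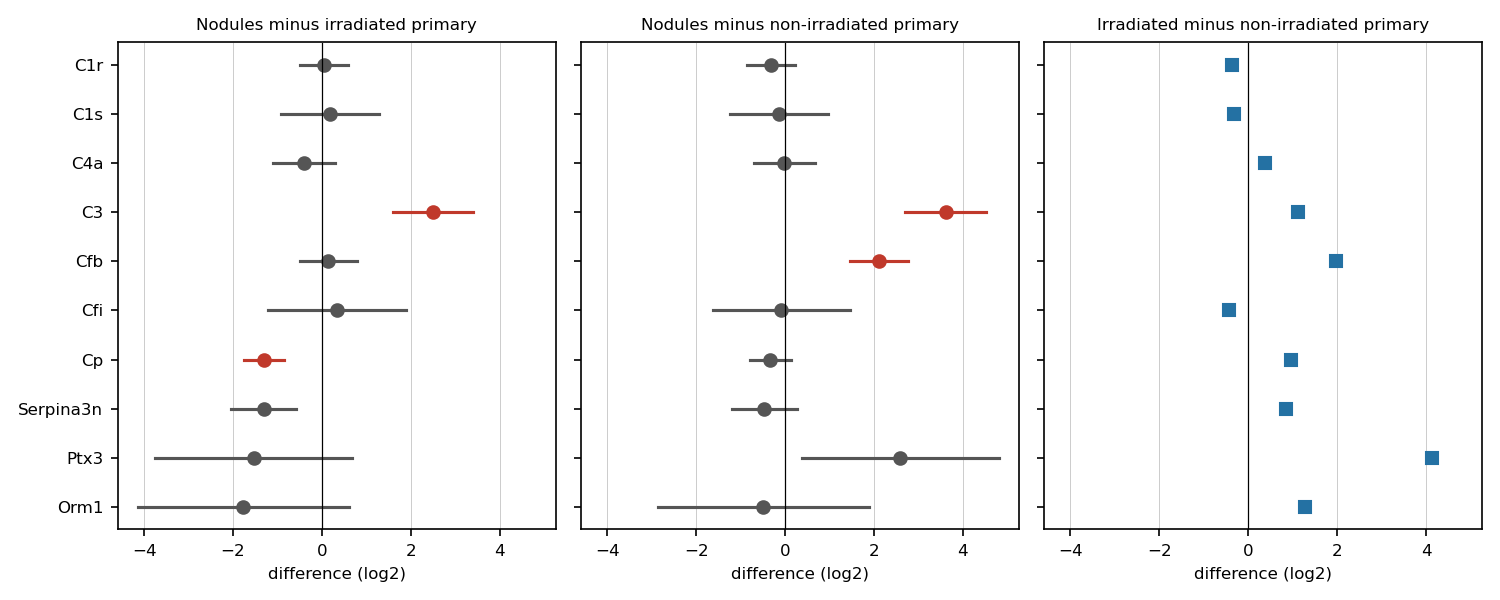
Log2 differences of the 10 genes for nodules minus irradiated primary, nodules minus non-irradiated primary and irradiated minus non-irradiated primary; bars are 95% limma intervals, red marks an adjusted p under 0.05, and squares are differences of single arrays with no interval. C3 is red in both nodule comparisons, Cp in the first and Cfb in the second, and the classical members lie near 0.

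Ceruloplasmin (Cp), a copper-carrying ferroxidase, was lower in the nodules than in the irradiated primary. The level of its brighter probe was 0.57, 0.90 and 0.63 in nodules 1, 2 and 3, against 2.00 in the irradiated and 1.03 in the non-irradiated primary. The nodules lay below both primaries, close to the non-irradiated one. Cp fell by 1.30 on the log2 scale against the irradiated primary (SE 0.17, limma adjusted p = 0.0377) and differed by -0.33 from the non-irradiated primary (adjusted p = 0.245). Every nodule lay below the irradiated primary in 5 of the 10 members (C4a, Cp, Serpina3n, Ptx3 and Orm1), beside 31.8% of all features, and below the non-irradiated primary in 3, beside 36.8%. The call was lost with scaling to the array median (adjusted p = 0.0718), without an intensity trend (adjusted p = 0.0764), without nodule 2 (adjusted p = 0.0957) and without nodule 3 (adjusted p = 0.104).

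The second Cp probe, whose accession is another RefSeq transcript of the gene, gave a different picture of the non-irradiated tumour. It read -1.04, -0.64 and -1.04 in nodules 1, 2 and 3, against 1.12 in the irradiated and 0.92 in the non-irradiated primary. On this probe both primaries were high and all nodules low. With every probe tested as a feature of its own, an alternative chosen after the data were seen, it fell by 2.02 against the irradiated primary (SE 0.21, limma adjusted p = 0.0237) and fell by 1.82 against the non-irradiated primary (SE 0.21, adjusted p = 0.0139). The primaries differed by 0.20 on this probe and by 0.97 on the brighter one. The genes most like the brighter probe in pattern were Ak4, a mitochondrial adenylate kinase, Spr, which makes tetrahydrobiopterin, and the interferon-induced Ifi44, with root mean square differences of 0.067, 0.0928 and 0.104.

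Serpina3n encodes a secreted serine protease inhibitor. It read 2.66, 2.20 and 1.98 in nodules 1, 2 and 3, against 3.59 in the irradiated and 2.75 in the non-irradiated primary. All nodules lay below both primaries. The difference was -1.31 against the irradiated primary (SE 0.28, limma adjusted p = 0.0867) and -0.47 against the non-irradiated one (SE 0.28, adjusted p = 0.294). Without nodule 1 both differences passed, at -1.50 (adjusted p = 0.00158) and -0.66 (adjusted p = 0.0141). Rat holds several close Serpina3 copies, and whether the probe tells them apart was not tested.

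Ptx3, a long pentraxin made locally in inflamed tissue that binds C1q, varied most between the primaries. Its level was -4.92, -3.00 and -3.03 in nodules 1, 2 and 3, against -2.12 in the irradiated primary and -6.25 in the non-irradiated primary, where it was not well above background. The nodules lay between the primaries, with nodule 1 apart from the other two. Ptx3 was at least 16.1-fold higher in the irradiated than in the non-irradiated primary. In the nodules it was at least 5.56-fold higher than in the non-irradiated primary. Limma tested this nodule difference without the bound (2.60 on the log2 scale, adjusted p = 0.0987). These bounds raise the dim array to its lowest well-above-background level and depend on the background correction: with normexp the log2 differences were 2.08 between the primaries and 0.99 for the nodules against the non-irradiated primary (adjusted p = 0.165). Against the irradiated primary the difference was -1.53 (SE 0.85, adjusted p = 0.367). Without nodule 1 the differences were -0.90 and 3.23 and both passed (adjusted p = 0.0486 and 0.000499). The dimmer second probe was well above background on 2 of 5 arrays and gave the same signs for the group differences.

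Orm1 encodes orosomucoid, an acute phase carrier protein secreted mainly by the liver. It read -3.88, -4.92 and -6.22 in nodules 1, 2 and 3, against -3.24 in the irradiated and -4.52 in the non-irradiated primary. Nodule 3 was not well above background, and the spread of the nodules (SD 1.17) was the widest among the 10 genes. Orm1 entered the test through the primaries, where it was well above background. Its differences were -1.77 (SE 0.91, limma adjusted p = 0.337) and -0.49 (SE 0.91, adjusted p = 0.738). With normexp they were -0.87 and -0.17. Over the 4 acute phase genes the median was -1.42 against the irradiated and -0.40 against the non-irradiated primary. In the irradiated primary, where these genes were highest, 5 skeletal muscle markers summed to 96.6, beside 4.77 to 5.22 in the nodules and 22.0 in the non-irradiated primary; the part of muscle in these differences was not tested.

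The promoters of Cp, Ptx3 and Orm1 are shown because the C/EBP letters matched the same 8 bases in all 3. They are the 250 bases before the start in RefSeq (GRCr8), at chr2:104368420-104368669, chr2:152797313-152797562 and chr5:81788259-81788508, all on the plus strand, with that match in capitals.
Cp: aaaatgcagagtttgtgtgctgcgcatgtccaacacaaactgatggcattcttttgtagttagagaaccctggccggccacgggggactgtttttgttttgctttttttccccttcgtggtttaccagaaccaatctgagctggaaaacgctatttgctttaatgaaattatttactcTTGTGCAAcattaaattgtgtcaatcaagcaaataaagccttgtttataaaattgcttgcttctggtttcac
Ptx3: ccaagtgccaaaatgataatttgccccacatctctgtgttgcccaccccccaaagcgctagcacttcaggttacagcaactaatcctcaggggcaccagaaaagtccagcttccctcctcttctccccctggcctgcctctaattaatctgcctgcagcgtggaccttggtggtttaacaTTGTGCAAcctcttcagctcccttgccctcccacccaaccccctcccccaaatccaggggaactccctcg
Orm1: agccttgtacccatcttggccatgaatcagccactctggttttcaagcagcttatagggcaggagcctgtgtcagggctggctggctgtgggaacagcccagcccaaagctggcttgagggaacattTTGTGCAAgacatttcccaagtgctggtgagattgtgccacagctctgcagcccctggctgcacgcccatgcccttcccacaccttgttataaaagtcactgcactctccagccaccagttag
The match TTGTGCAA began 72, 70 and 123 bases before the start. It stood in 0.732% of 33469 promoters on either strand, and the exact 8 bases were picked after the match was seen. The letters TTGCNNAA were found in 5 of 8 member promoters searched, also in C1r and C3, against 9.22% of all. The STAT letters TTCNNNGAA were in 1 of the 8, Serpina3n (TTCCCAGAA, 7.67% of all promoters). The letters ACGTG were in C3, C4a and C1r (16.6% of all), and neither GGANNTTCC for NF-kB (3.36%) nor GAAANNGAA for interferon response (8.12%) was in these windows. The table held no entry for C1s and Cfb.

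The primaries were compared array against array, without a test. Of the 10 genes 4 were at least 2-fold higher in the irradiated than in the non-irradiated primary and 0 lower, where 9.31% of 18448 features were higher and 7.14% lower by that much. These were Ptx3, Cfb (1.97), Orm1 (1.28) and C3 (1.11). Cp (0.97) and Serpina3n (0.84) came close, while C1r (-0.35), C1s (-0.32), C4a (0.38) and Cfi (-0.43) differed less. For scale, 6.99% of features differed by as much between nodules 1 and 2, 9.37% between nodules 1 and 3 and 3.60% between nodules 2 and 3. With normexp background correction the count was 2, Cfb (1.56) and Ptx3 (2.08). The members varied more between nodules than most features, with a median SD of 0.39 beside 0.16 over all features.

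Other complement genes were measured in a list of 42 genes, of which 35 had a probe and 19 were tested. By limma 0 of the 19 passed against the irradiated primary, with a median of -0.18. At an unadjusted p under 0.05 there were 3, beside 4153 of all 18913 features. Against the non-irradiated primary, where 9.72% of all features rose and 8.85% fell, 4 of the 19 rose and 0 fell. The recognition subunits C1qa and C1qb rose by 0.93 (adjusted p = 0.0192) and 1.20 (adjusted p = 0.0132). The membrane cofactor Cd46, not well above background in that primary, was at least 3.64-fold higher. Limma tested the Cd46 difference without this bound (2.07 on the log2 scale, adjusted p = 0.0147). C1qa and C1qb are also on the macrophage list, of which 5 of 8 tested markers, these included, rose and 2 fell in this comparison. Clu, a fluid phase inhibitor, was at 2.11, 2.34 and 2.88 in nodules 1, 2 and 3, against 3.34 in the irradiated and 1.22 in the non-irradiated primary. The receptors C3ar1 and C5ar1, the C1 inhibitor Serping1 and the lectins Mbl1 and Mbl2 were among 15 genes of the list not well above background on any array, and were picked for mention after that was seen. Without nodule 3 the count of 4 was 1, and without nodule 2 it was 0.

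**Figure D3:**
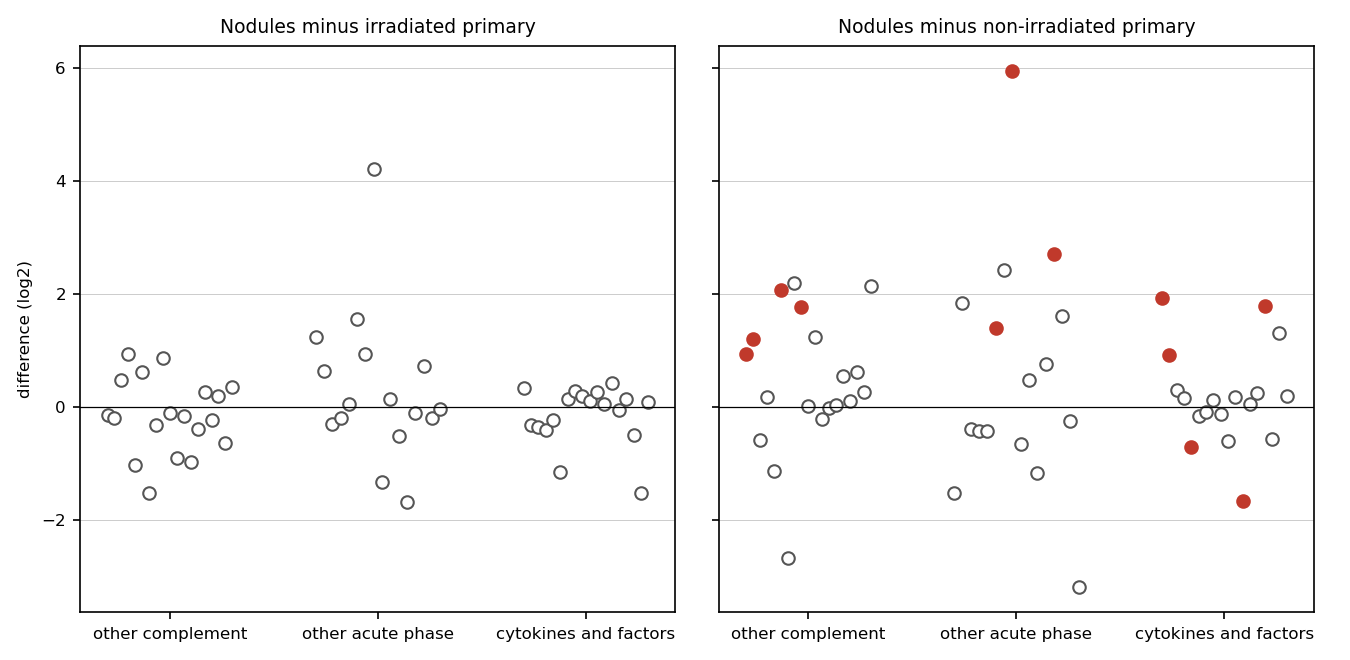
Log2 differences of the other tested complement genes, other acute phase genes and upstream cytokines and factors, for nodules minus irradiated primary and nodules minus non-irradiated primary; each circle is a gene and red marks an adjusted p under 0.05. No circle is red against the irradiated primary, and 12 are red against the non-irradiated primary.

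Among 26 other acute phase genes, 16 were tested. In the test against the irradiated primary 0 passed limma. At an unadjusted p under 0.05 there were 3, beside 4153 of all 18913 features. Against the non-irradiated primary, where 9.72% of all features rose and 8.85% fell, 3 of the 16 rose and 0 fell. The inter-alpha-trypsin inhibitor chain Itih4 was at 0.83, -0.86 and 0.78 in nodules 1, 2 and 3, against -3.95 in the irradiated and -5.69 in the non-irradiated primary, where it was not well above background. All nodules stood far above both primaries. It was 61.2-fold higher than in the non-irradiated primary (log2 difference 5.94, SE 0.74, adjusted p = 0.0153). That fold is an estimate and no lower bound. The level of -5.69 already lay above the lowest well-above-background level of that array (-6.12). Itih4 differed by 4.20 from the irradiated primary (SE 0.74, adjusted p = 0.0583). Against the non-irradiated primary the haemoglobin scavenger Hp rose by 1.40 (adjusted p = 0.0479). The antiplasmin Serpinf2, not well above background in that primary, was at least 2.40-fold higher. Limma tested the Serpinf2 difference without this bound (2.70 on the log2 scale, adjusted p = 0.0147). Without nodule 3 and without nodule 2, 0 of the acute phase calls stood.

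Some liver transcripts stood out in nodule 2. Albumin (Alb) stood at -1.39 in nodule 2, against -8.43 and -8.68 in nodules 1 and 3, -8.02 in the irradiated and -8.09 in the non-irradiated primary. Fibrinogen Fgb stood at -1.53 in nodule 2, against -8.20 and -8.83 in nodules 1 and 3, -8.15 in the irradiated and -8.21 in the non-irradiated primary. Both genes were well above background in nodule 2 only, and they are named here after their values were seen. Of 7 hepatocyte markers 6 were well above background in nodule 2, against 0 and 3 in nodules 1 and 3, 1 in the irradiated and 3 in the non-irradiated primary. Not all were highest in nodule 2. Cyp2e1 was highest in nodule 3 (-3.33, against -5.34 in nodule 2), and Apoa1 (-5.41) and Serpina1 (-4.80) in the non-irradiated primary. Alb, Fgb, Apoh and Ttr were highest in nodule 2, Ttr at -2.56 against -2.68 in the non-irradiated primary. The haem carrier Hpx (-1.94) and Ambp (-1.95) were highest in nodule 2 as well. Of the 10 members 8 also had their highest nodule level there, by under 0.1 for C1r, C1s and Ptx3, beside 30.4% of all features, while Serpina3n and Orm1 were highest in nodule 1. The part of these liver transcripts in the member levels was not tested. Without nodule 2 no feature at all was called in either test, so the lost calls of C3, Cfb and Cp were not particular to these genes. Their differences without it were 2.34 (C3) and -1.40 (Cp) against the irradiated primary. Against the non-irradiated primary they were 3.46 (C3) and 1.96 (Cfb).

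**Figure D4:**
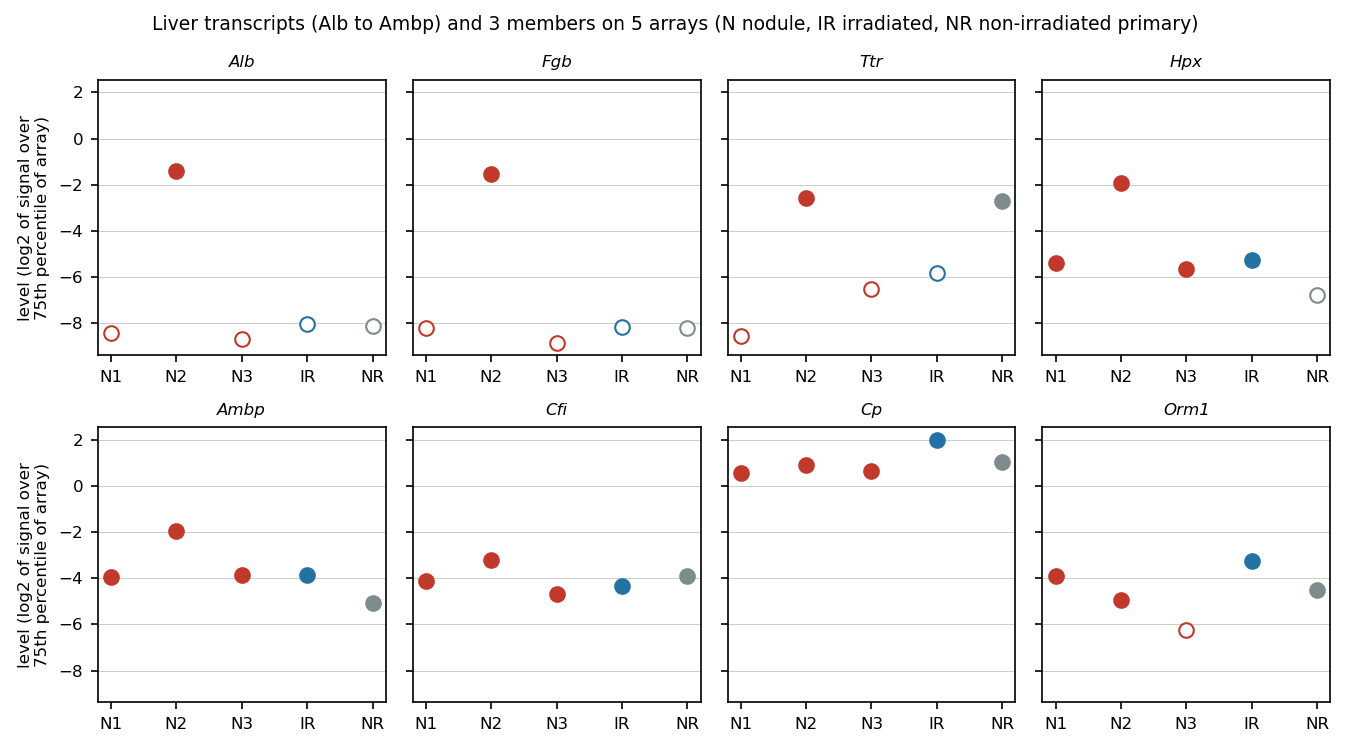
Level of 5 transcripts made mainly by the liver (Alb, Fgb, Ttr, Hpx, Ambp) and of Cfi, Cp and Orm1 on the 5 arrays, as the log2 signal over the 75th percentile of the array; N1 to N3 are the nodules, IR the irradiated and NR the non-irradiated primary, and open circles are probes not well above background. Alb and Fgb are filled in nodule 2 only, while Orm1 is lower in nodule 2 than in nodule 1.

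Of 24 cytokines and factors that act on these genes, 18 were tested. Relative to the irradiated primary 0 passed limma. At an unadjusted p under 0.05 there were 4, beside 4153 of all 18913 features. Relative to the non-irradiated primary, where 9.72% of all features rose and 8.85% fell, 3 of the 18 rose and 2 fell. Among them Cebpa, not well above background in the non-irradiated primary, was at least 1.88-fold higher. Limma tested the Cebpa difference without this bound (1.925 on the log2 scale, adjusted p = 0.0274). Cebpb rose by 0.91 (adjusted p = 0.0422), while oncostatin M (Osm) fell by 1.68 (adjusted p = 0.0212) and Ifngr1 fell by 0.72 (adjusted p = 0.0242). Cebpb stood at 3.94, 4.14 and 3.69 in nodules 1, 2 and 3, against 4.24 in the irradiated and 3.01 in the non-irradiated primary. Tnf was at -4.43, -3.62 and -4.06 in the same nodules, against -2.51 in the irradiated and -5.34 in the non-irradiated primary. It was highest in the irradiated primary, as were Il6, Cebpb, Cebpd and Hif1a of the same list. The difference of Tnf from that primary did not pass (log2 difference -1.53, limma adjusted p = 0.111). Without nodule 3 these 5 calls were 1, and without nodule 2 they were 0.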

How the data were processed

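RNA was labelled with Cy3 and read on 1-colour Agilent rat arrays, 1 array a sample and 5 on 1 slide. The deposited intensity values are spot signals from Agilent Feature Extraction 11.0, per the submitters' processing notes. Per the file headers they were background-subtracted and detrended within each array, with no adjustment between arrays. Deposited spot flags are other, coded values. A deposited table of log2 values for 18502 probes, whose making by the authors is not given in the sources used here, had equal column medians (9.74) and served as an alternative. Its scale is log2 and its centring is not stated.

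Control and outlier spots were left out, the log2 signals of a probe averaged and the 75th percentile of each array subtracted. A probe counted as well above background when a share over 0.5 of its spots was flagged so. It was tested if this held on all arrays of at least 1 group. Of 30363 probes used, 60.4% had a gene name through RefSeq accessions (GRCr8 gene table). The array was designed on an older genome, so only promoter coordinates, from the RefSeq table, are given. Tests used limma 3.58.1 in R 4.3.3 with 3 group means and an intensity trend, and the code was tested on simulated data. Features whose log2 level differed by 1 or more between the primaries were counted. Nodules lay in one row of the slide and primaries in the other, so row and group cannot be told apart. Precision is limited by the number of arrays. All 10 genes were named, and genes of the other lists if they passed limma or differed at least 2-fold between the primaries (at most 6 each way). Alb, Fgb, Gfap, C1qc, C3ar1, C5ar1, Serping1, Mbl1 and Mbl2 fall outside this rule and were named after their values were seen. So do Apoa1, Apoh, Cyp2e1, Serpina1, Cebpd, Hif1a and Il6, which were named in the same way. For likeness the 3 closest genes were taken. Alternatives in background correction, scaling, filter, variance model, probe choice and nodules kept were tried, and one with every probe as a feature was added after the data were seen. Normexp used median spot signals. Members and lists were chosen with earlier results of these data known. Some genes that met the naming rule are not reported here. Protein sequences were not used here.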

Additional observations from a re-analysis of the deposited data

How the results depend on the processing

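Each primary was 1 array, so nothing here measures the spread between primaries, and host RNA was read through rat probes. Alternatives changed background, scaling, filter, variance model, probe choice and nodules. C3 kept its direction in all 11 against both primaries (2.34 to 2.75 and 3.38 to 3.86 on the log2 scale). Against the irradiated primary 704 features were called, 438 with median scaling and 399 without an intensity trend, and 0 to 3232 when 1 nodule was left out. The 2 members called there were 1 with median scaling, 1 with quantile normalization, 0 without an intensity trend, and 0 to 6 when 1 nodule was left out. Against the non-irradiated primary 3512 features were called, 0 to 6472 when 1 nodule was left out, with 0 to 4 members. Without nodule 2 limma called 0 features, with 2705 and 5008 at an unadjusted p under 0.05. Between the primaries 3035 features differed at least 2-fold, 1495 with normexp, and of the members 4, against 2 with normexp, 2 where all 5 arrays had to be well above background and 2 in the deposited table, since the last 2 hold neither Ptx3 nor Orm1.

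Uncalled differences near 0 changed sign when 1 nodule was left out. Against the irradiated primary C1r ran over -0.0406 to 0.179 (-0.0095 without nodule 3), Cfb over -0.0015 to 0.261 and Cfi over -0.0486 to 0.68. Against the non-irradiated primary C4a ran over -0.138 to 0.124, C1s over -0.301 to 0.183, Cfi over -0.476 to 0.252 and Orm1 over -1.05 to 0.121. The cause of these changes was not tested. Averaging both Cp probes gave -1.08 against the non-irradiated primary (limma adjusted p = 0.0286). No paired analysis was possible because each primary is a single array and the labels do not link a nodule to a primary.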
